A study of Mus musculus with 24 samples.

Results

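Astrocyte marker genes are genes that adult astrocytes transcribe at higher levels than most other cells of the brain, though they need not be confined to astrocytes. The 10 genes described here are Aldh1l1, Gfap, Aqp4, Slc1a2, Slc1a3, Gja1, S100b, Glul, Sox9 and Aldoc. They were taken by name from the 52636 genes counted in each library, and all 10 passed the filter on low counts in every comparison. RNA-seq was performed on the bilateral nucleus accumbens (NAc), a ventral striatal region of the reward circuit, dissected with a 1.5 mm punch from C57BL/6 mice aged 50 days, whose parents were C57BL/6J by the study's methods. Each of the 24 libraries came from 1 mouse, with 6 control (Con) females, 6 females raised under maternal separation with unpredictable stress of the dam (MSUS), 6 Con males and 6 MSUS males. MSUS litters were taken from their dams daily for the first 2 weeks of life, and the dams were themselves stressed at unpredictable times, while Con litters were left undisturbed. None of the 4 groups received a drug. The labels do not say which mice were littermates, so the p-values cover the spread between these mice.

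Astrocytes clear glutamate from synapses through the sodium-dependent transporters encoded by Slc1a2 and Slc1a3 and turn it into glutamine with glutamine synthetase, encoded by Glul. They form a network coupled by gap junctions of connexin 43 (Gja1) and exchange water with vessels through aquaporin 4 (Aqp4) on their endfeet. In the striatum this cell type shapes the glutamate supply of projection neurons, and Gfap, the intermediate filament gene most used to stain astrocytes, is known to be weakly expressed there by comparison with white matter and the brain's borders.

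Sense-strand counts summed to between 39923666 and 70575745 pairs per library. Xist and Ddx3y counts matched the sex on every label. Markers of striatal projection neurons (Drd1, Drd2, Adora2a, Ppp1r1b, Penk and Tac1) were detected in every library, with a summed level of 1030.2 to 3048 CPM (counts per 1000000 counts of the TMM-scaled library total) in Con females and 1917 to 2796 CPM in MSUS females. The summed level of 6 cortical excitatory neuron markers differed widely between punches, from 143 to 1502 CPM in Con females and from 9.02 to 616 CPM in MSUS females. The share of uniquely mapped pairs that fell in no exon annotated on their sense strand is called below the share of pairs in no exon. This share separated the female groups without overlap, with 31.0 to 34.8% in Con females and 36.3 to 43.9% in MSUS females. In males it overlapped, with 34.7 to 40.6% in Con and 32.2 to 44.7% in MSUS.

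The 10 genes covered a wide range of levels, given here as CPM per kilobase of exon and averaged over the 24 mice. Slc1a2 was the most abundant at 366 ± 26.4 (SD, n = 24), followed by Glul at 326 ± 22.95. These neighbours overlapped in range, although Slc1a2 lay above Glul in 22 of 24 mice. Aldoc, the aldolase of astrocyte glycolysis, followed at 114 ± 8.87, Slc1a3 at 53.3 ± 2.33 and S100b, which encodes a calcium-binding protein, at 33.6 ± 3.72. The ranges from Glul down to Gja1 did not overlap between neighbours. The remaining genes formed a continuous series in which each overlapped the next, with Gja1 at 17.6 ± 1.19, Aqp4 at 13.1 ± 1.44, the transcription factor gene Sox9 at 9.96 ± 0.795, the folate enzyme gene Aldh1l1 at 8.40 ± 0.6001 and Gfap at 7.02 ± 1.73. Slc1a2 ranked as number 25 and Gfap as number 6206 of 52489 genes on this scale. The order at the lower end depended on the length used: with the longest transcript in place of all exons, Gja1 (46.3 ± 3.13) moved above S100b and Gfap (11.2 ± 2.75) above Sox9.

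**Figure D1:**
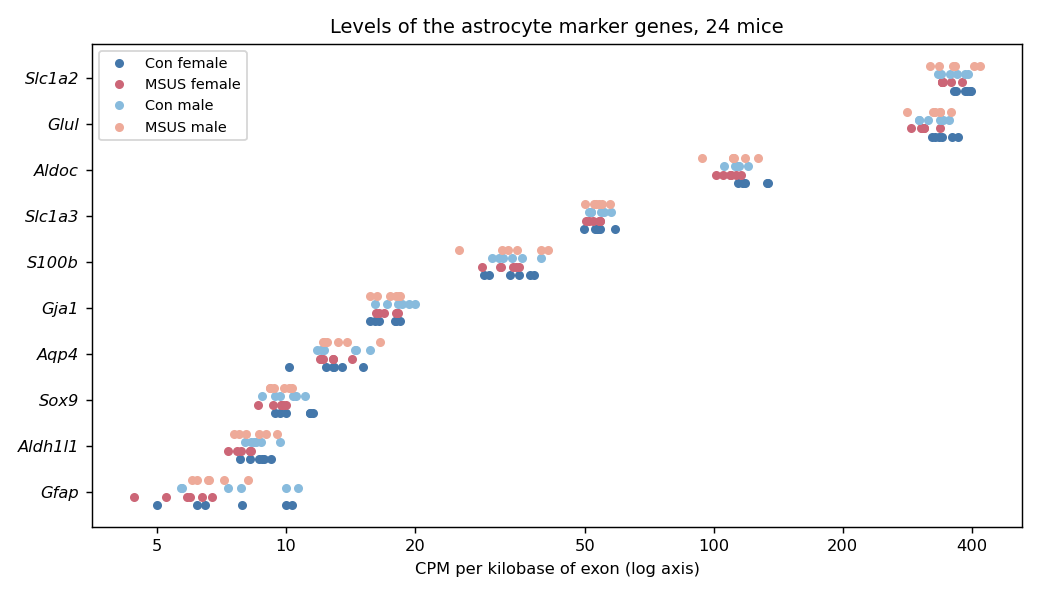
Level of each astrocyte marker gene in CPM per kilobase of exon (horizontal log axis), with 1 point per mouse and the 4 groups in separate rows and colors. Slc1a2 lies between 319 and 419 and Glul between 283 and 371, whereas Gfap lies between 4.42 and 10.7.

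Sequences just upstream of annotated starts are given for 4 of these genes: Glul and Aldh1l1, which were lower in MSUS females, Slc1a3, which had among the smallest differences, and Gfap, the most variable. Each is 120 bases long, ends 10 bases before the RefSeq start and is written 5′ to 3′ on the gene's strand in build GRCm38.p6. They lie at chr1:153899799-153899918 (plus strand, Glul), chr6:90550663-90550782 (plus, Aldh1l1), chr15:8710818-8710937 (minus, Slc1a3) and chr11:102897211-102897330 (minus, Gfap). Capitals mark a GC box (GGGCGG) in Glul and Aldh1l1, and a STAT site (TTCNNNGAA) and a glucocorticoid response element half-site (AGAACA) in Slc1a3.
Glul: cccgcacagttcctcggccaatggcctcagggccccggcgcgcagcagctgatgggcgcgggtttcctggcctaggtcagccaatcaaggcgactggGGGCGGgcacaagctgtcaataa
Aldh1l1: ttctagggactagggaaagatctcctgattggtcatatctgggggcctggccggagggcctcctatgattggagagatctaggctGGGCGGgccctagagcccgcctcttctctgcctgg
Slc1a3: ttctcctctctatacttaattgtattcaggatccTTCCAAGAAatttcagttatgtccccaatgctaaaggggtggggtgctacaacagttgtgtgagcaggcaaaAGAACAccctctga
Gfap: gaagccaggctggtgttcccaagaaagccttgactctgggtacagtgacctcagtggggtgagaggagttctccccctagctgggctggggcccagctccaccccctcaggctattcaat

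RefSeq windows of 250 upstream bases were found for 8 of the 10 genes, 9 windows in all, and Aqp4 and Sox9 had no entry in the table used. Searched on both strands, the GC box was present in 4 of the 9 windows (Glul, Aldh1l1, Aldoc and Slc1a3) and in 32.7% of the 32851 windows of all genes. The STAT site was present in Slc1a3 and in 1 of the windows of Aldoc, against 7.02% of all windows. The glucocorticoid half-site was present in Slc1a3 alone, against 16.1% of all windows. TATAAA was found in Slc1a3 (12.4% of all windows), and the nuclear factor I half-site TTGGCA in Aldoc and S100b (12.3%). The SOX site AACAAT was in none of the 9 windows and in 9.42% of all windows. No match overlapped another in the printed sequences, and a match is a description of the letters only.

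The main comparison asked which transcripts of the NAc differed after early-life stress within each sex. In females, 4 of the 10 astrocyte marker genes passed the threshold of an adjusted p under 0.10 (edgeR's quasi-likelihood test with Benjamini-Hochberg adjustment over 20571 genes), and all 4 were lower in MSUS: Glul, Aldoc, Slc1a2 and Aldh1l1. The differences were small, and the fitted levels of the 4 genes fell by 7.56 to 10.6%. The background was high in this comparison, since 25.1% of all genes tested passed and 11.9% passed with lower values in MSUS. The log2 fold change was below 0 for 9 of the 10 genes, with a median of -0.12, beside a median of -0.0027 over all genes tested. In bulk tissue, fewer astrocytes, less RNA per astrocyte and other differences between the punches or libraries cannot be told apart.

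Among the genes of astrocyte identity, structure and calcium binding, Aldh1l1 was measured at 35.3, 39.4 and 41.7 CPM (lowest, median and highest) in Con females and at 33.0, 36.3 and 37.5 CPM in MSUS females. Each of the 6 MSUS values was under the median of Con, and the groups overlapped. How many of all genes tested showed that pattern was not counted, here and for the genes below. Aldh1l1 encodes a folate-metabolizing dehydrogenase that marks astrocytes throughout the brain. Its log2 fold change was -0.11 ± 0.045 (SE, n = 6 per group) with an adjusted p of 0.0997 by edgeR, just inside the threshold, and it moved to -0.019 with offsets for GC content and length (adjusted p = 0.806). Sox9, which encodes a transcription factor of the glial lineage, was measured at 39.0, 44.2 and 47.7 CPM in Con and 35.7, 40.4 and 41.4 CPM in MSUS females. Its log2 fold change of -0.14 ± 0.058 did not pass (adjusted p = 0.108 by edgeR). Each of the 6 MSUS values was again under the median of Con. Sox9 passed with DESeq2 (adjusted p = 0.0985) and with unstranded counts (adjusted p = 0.0619 by edgeR). No other alternative that kept every female called Sox9. Its value was -0.11 ± 0.054 once GC content and length were offset (adjusted p = 0.184 by edgeR). The value of Sox9 was -0.044 ± 0.12 with the share of pairs in no exon in the model.

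Gfap had the largest female fold change of the 10 genes and by far the largest spread. It was measured at 21.1, 30.3 and 43.6 CPM in Con females and at 18.6, 24.95 and 28.3 CPM in MSUS females. The Con females were dispersed, and the MSUS females clustered in the lower part of the Con range, apart from MSUS female 3, which lay below every Con female. The log2 fold change was -0.41 ± 0.18 and did not pass the threshold with edgeR (adjusted p = 0.132), whereas DESeq2 called it (adjusted p = 0.0677). With the cortical marker score in the model, the value for Gfap was -0.13 ± 0.20. S100b was measured at 43.2, 50.7 and 56.4 CPM in Con and 42.6, 48.7 and 51.9 CPM in MSUS females. Its log2 fold change was -0.048 ± 0.071 (adjusted p = 0.669 by edgeR), with a 95% interval from -0.19 to 0.091.

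The 2 glutamate transporter genes differed in their female values. Slc1a2 encodes GLT-1, which carries most glutamate uptake in the forebrain, and was measured at 4788, 5099.6 and 5239 CPM in Con females and 4476, 4494 and 4999 CPM in MSUS females. A single MSUS female lay within the Con range and the other MSUS females lay below it. The log2 fold change was -0.13 ± 0.044 with an adjusted p of 0.0647 by edgeR. Slc1a3, which encodes the transporter GLAST, was measured at 424, 455 and 502 CPM in Con and 430.0, 453 and 463 CPM in MSUS females, and the MSUS values lay entirely within the Con range. Its log2 fold change was -0.023 ± 0.039 (adjusted p = 0.713 by edgeR), with a 95% interval from -0.0995 to 0.053. The difference between the fold changes of the 2 transporter genes was not itself tested.

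The water channel and gap junction genes did not pass the test in females. Aqp4 was measured at 63.5, 80.4 and 94.6 CPM in Con and 74.9, 78.1 and 89.1 CPM in MSUS females. Gja1 was measured at 162, 177 and 189 CPM in Con and 167, 179.8 and 188 CPM in MSUS females. For both genes the MSUS range lay within the Con range. The log2 fold change was -0.011 ± 0.077 for Aqp4 (adjusted p = 0.935 by edgeR), with a 95% interval from -0.16 to 0.14. For Gja1 it was 0.022 ± 0.050 (adjusted p = 0.793 by edgeR), with a 95% interval from -0.076 to 0.12. With offsets for GC content and length the values were -0.11 ± 0.062 for Aqp4 (adjusted p = 0.2495 by edgeR) and -0.048 ± 0.041 for Gja1 (adjusted p = 0.461), a change of sign for Gja1, which was also slightly below 0 with unstranded counts (-0.0060).

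Both metabolic enzyme genes were lower in MSUS females. Glul, the glutamine synthetase gene, was measured at 1076, 1124 and 1232 CPM in Con and 959.6, 1022 and 1119 CPM in MSUS females. Its log2 fold change was -0.15 ± 0.048 with an adjusted p of 0.0498 by edgeR, the smallest of the 10 genes. Aldoc was measured at 371, 384 and 437 CPM in Con and 329.6, 357 and 378 CPM in MSUS females, with a log2 fold change of -0.16 ± 0.052 and an adjusted p of 0.0511 by edgeR. For each enzyme gene the 6 MSUS values were all under the median of Con, but the ranges overlapped. None of the 10 genes had female groups that did not overlap at all, beside 7.26% of all genes tested.

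**Figure D2:**
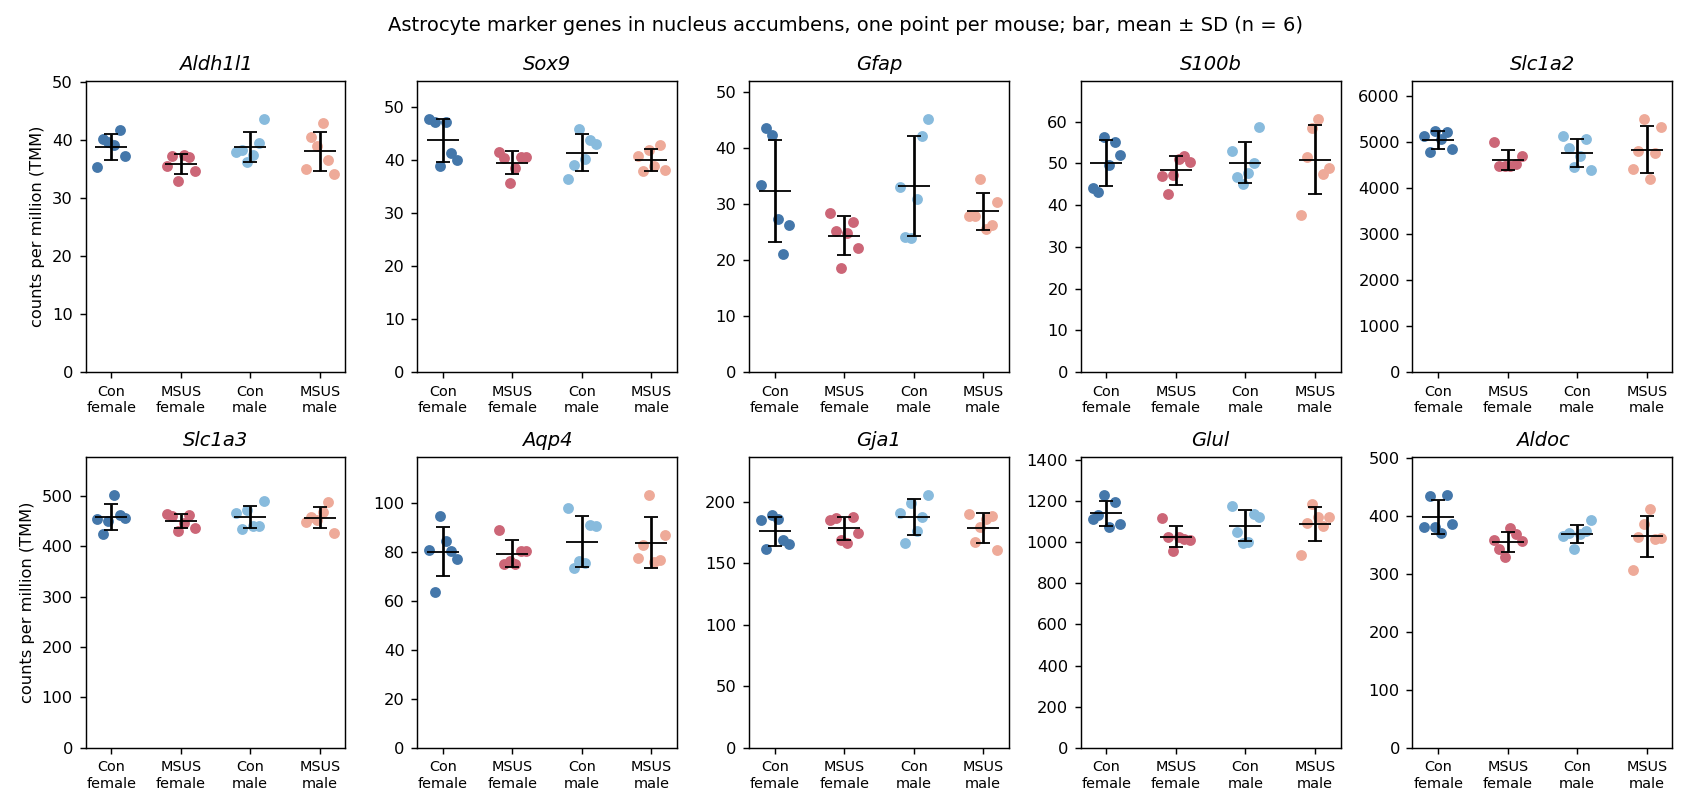
CPM (vertical axes, from 0) of each astrocyte marker gene in the 4 groups, with 1 point per mouse and a bar for the mean ± SD (n = 6). Slc1a2, Glul, Aldoc and Aldh1l1 sit slightly lower in MSUS than in Con females with overlapping ranges, and Gfap is dispersed in both Con groups.

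The female calls changed when measures of the libraries were added to the model. With the share of pairs in no exon added to the model, 0 of the 10 genes and 0 of all genes passed with edgeR, while 0 of the 10 and 1174 of all genes had an unadjusted p under 0.05. Since that share separated the female groups completely, its part and that of MSUS cannot be told apart. The value of Glul was then -0.10 ± 0.10 and that of Slc1a2 -0.091 ± 0.095. The value of Aldoc was -0.032 ± 0.10 and that of Aldh1l1 -0.037 ± 0.093. Another model had the spliced share in its place, which is the splice events in the study's supplement per uniquely mapped pair of the library. With it, 0 of the 10 genes and 0 of all genes passed with edgeR. In that model 0 of the 10 and 719 of all genes had an unadjusted p under 0.05. The values of Aldoc (0.049 ± 0.11) and Aldh1l1 (0.016 ± 0.10) were above 0 by less than their SE. Those of Slc1a2 (-0.16 ± 0.11) and Glul (-0.13 ± 0.12) stayed below 0, and that of Sox9 was -0.0034 ± 0.14.

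**Figure D3:**
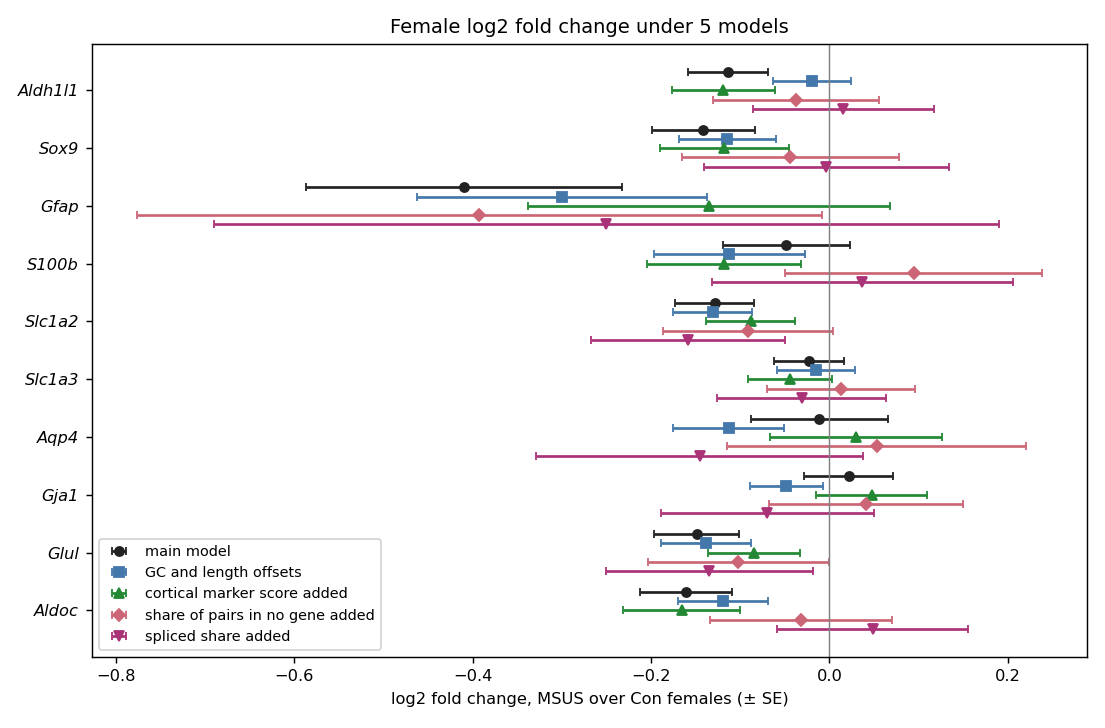
Log2 fold change of MSUS over Con females (horizontal axis, ± SE) for each astrocyte marker gene under 5 models, with n = 6 per group. Adding the share of pairs in no exon (written as in no gene in the key) or the spliced share widened every error bar. Aldoc moved from -0.16 in the main model to -0.032 and 0.049.

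Markers of other cell types moved in the same comparison. Of the 7 oligodendrocyte markers, 5 were lower in MSUS females, and their summed level was 3876 to 5852 CPM in Con against 3509 to 4354 CPM in MSUS. Of the 6 neuron markers, 4 were lower, with summed levels of 2675 to 4669 CPM in Con and 2381 to 3362 CPM in MSUS. Of the 5 subventricular progenitor markers, 1 was lower. Of all genes tested in this comparison, 25.1% were called and 11.9% were called lower. With edgeR 0 passed among the 6 striatal projection neuron, 6 cortical, 2 oligodendrocyte precursor, 5 microglia, 4 endothelial and 3 tested ependymal and choroid plexus markers. At an unadjusted p under 0.05 these lists had 0, 1, 0, 1, 2 and 0, and DESeq2 called 1 cortical marker and none of the others. All 6 cortical markers were nevertheless lower in MSUS females, with log2 fold changes from -2.21 to -1.67 (median -1.84) and a wide spread between punches. Between MSUS females and MSUS males the oligodendrocyte marker Opalin was lower in females, at -0.34 ± 0.048 (adjusted p = 0.00803 by edgeR). It was the 1 of the 7 oligodendrocyte markers that edgeR called there, while DESeq2 called 6, and all 7 were below 0 with an unadjusted p under 0.05 (median -0.27). The 10 astrocyte marker genes summed to 7169 to 7763 CPM in Con and 6575 to 7366 CPM in MSUS females. No gene of these marker lists was at 0 in all libraries. With the cortical marker score in the model, 0 of the 10 genes passed in females with edgeR (1 at an unadjusted p under 0.05, and 1817 of all genes passed), and the values were -0.17 ± 0.066 for Aldoc, -0.12 ± 0.058 for Aldh1l1, -0.088 ± 0.050 for Slc1a2 and -0.084 ± 0.051 for Glul. The part of the other cell types in these results was not tested beyond that model.

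Single libraries also decided calls. Leaving out Con female 3, whose punch had the highest cortical marker level among females, left 4 genes called (Aldoc, Glul, Slc1a2 and Sox9). Without MSUS female 2 or MSUS female 3, 0 of the 10 genes were called (edgeR), with 3358 and 3102 of all genes still past the threshold, and without MSUS female 4 only Aldoc was called. Over the 12 fits that left out 1 female each, Aldoc was called in 10, Glul in 9, Slc1a2 in 6, Sox9 in 3, Aldh1l1 in 2 and Gfap in 1. The sign of each of these 6 genes was negative in every one of those fits.

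In males, 0 of the 10 genes passed with edgeR or with DESeq2, 0 of them had an unadjusted p under 0.05, and the background was also 0% of 20691 genes. The median log2 fold change of the 10 genes was -0.0065. Slc1a2 was measured at 4379.95, 4774 and 5139 CPM in Con males and 4194, 4779 and 5499 CPM in MSUS males, so that the MSUS range enclosed the Con range. Glul was measured at 999, 1086 and 1175 CPM in Con and 940.4, 1107 and 1189 CPM in MSUS males. The 95% intervals of the male log2 fold change ran from -0.13 to 0.18 for Slc1a2 and from -0.11 to 0.15 for Glul.

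Aldoc and Aldh1l1 likewise did not separate the male groups. Aldoc was measured at 344, 369.9 and 393 CPM in Con and 306, 363 and 413 CPM in MSUS males, and Aldh1l1 at 36.2, 38.2 and 43.7 CPM in Con and 34.2, 37.8 and 43.0 CPM in MSUS males. Gfap had the largest male fold change of the 10 genes, -0.21 ± 0.16, with 23.99, 32.0 and 45.1 CPM in Con and 25.5, 27.8 and 34.4 CPM in MSUS males. As in females, the Con males were more dispersed than the MSUS males, with a coefficient of variation of 26.8% against 11.4% in males and 28.3% against 14.2% in females. This difference in spread was not tested.

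The group-by-sex interaction asked whether the MSUS effect differed between females and males. None of the 10 genes passed with edgeR or DESeq2, 1 had an unadjusted p under 0.05, and the edgeR background was 0% of 21500 genes. The largest differences relative to their error were those of Glul, at -0.17 ± 0.079 (adjusted p = 0.255 by edgeR), Aldoc, at -0.16 ± 0.079 (adjusted p = 0.288), and Slc1a2, at -0.16 ± 0.088 (adjusted p = 0.316). The 95% interval of Glul, from -0.33 to -0.016, did not reach 0 before adjustment. The result rested on MSUS male 1, the library with the largest share of pairs in no exon: without it, 3031 of all genes passed, and Glul (-0.20, adjusted p = 0.0832) and Aldoc (-0.20, adjusted p = 0.0901) were among them. A female effect past the threshold beside a male effect that was not therefore did not amount to a tested difference for any of the 10 genes in all 24 mice.

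**Figure D4:**
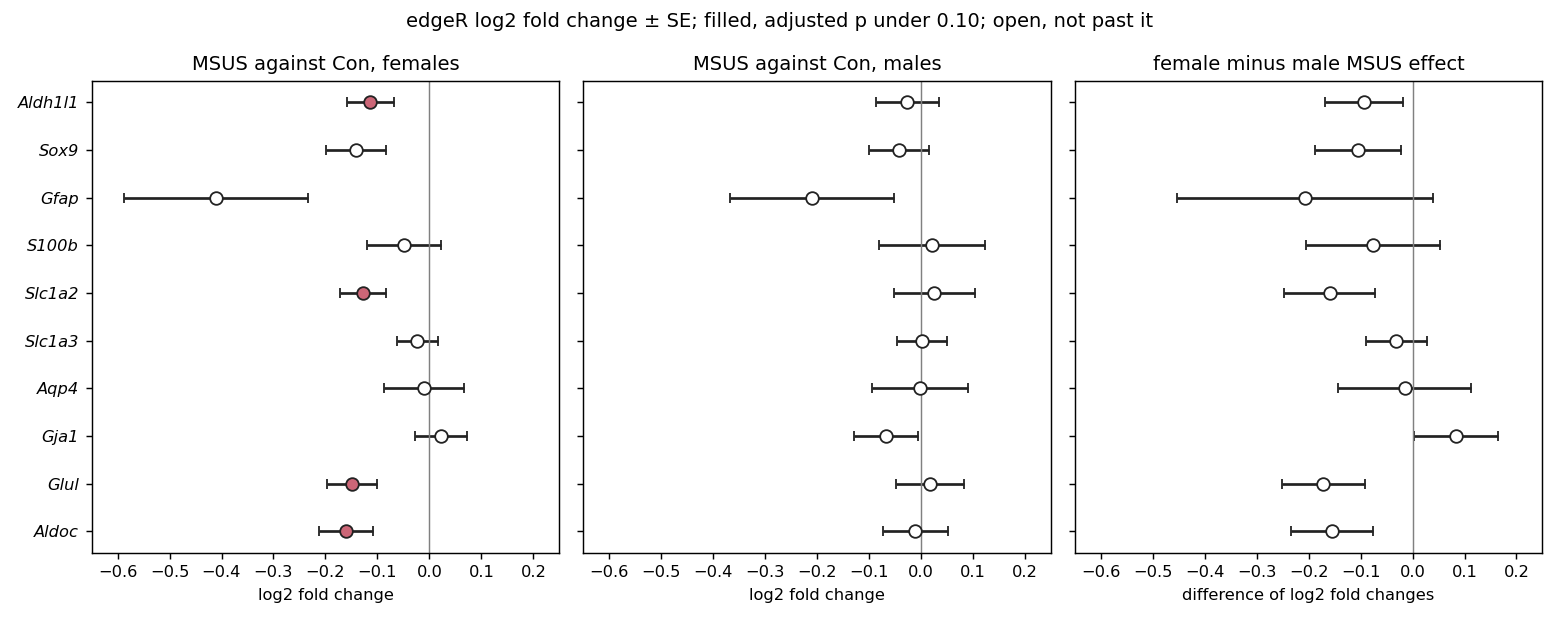
Log2 fold change of MSUS over Con in females and in males, and the difference between them (horizontal axes, ± SE, n = 6 per group), for each astrocyte marker gene. Filled points passed an adjusted p under 0.10, which 4 genes did in females and 0 did in the other comparisons.

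Females and males were also compared within each condition. In Con mice, 0 of the 10 genes passed with edgeR or DESeq2 and 1 had an unadjusted p under 0.05, beside a background of 2.64%. That gene was Aldoc, with a log2 fold change of females over males of 0.12 ± 0.054 (adjusted p = 0.255 by edgeR), and each of the 6 Con females was above the median of the Con males. In MSUS mice, 0 passed with edgeR or DESeq2 beside a background of 0.135%, and 1 had an unadjusted p under 0.05. That gene was Gfap, at -0.24 ± 0.097 (adjusted p = 0.667 by edgeR). The log2 fold change of females over males was above 0 for 7 of the 10 genes in Con mice and below 0 for all 10 in MSUS mice, where 46.4% and 51.3% of all genes tested were below 0 in Con and in MSUS mice. In MSUS mice the 7 oligodendrocyte, 6 neuron, 6 cortical and 2 oligodendrocyte precursor markers were also all below 0. Of the 6 striatal projection neuron markers 0 were below 0 (median 0.18). Among the 5 microglia markers 2 were below 0, and among the 4 endothelial markers 2. The part of these cell types in the values of the 10 genes was not tested. These comparisons share their animals with the comparisons within each sex, and are not independent of them.

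A wider view of astrocyte genes came from 49 further genes in 5 lists. In females, 9 of them were lower and 2 higher in MSUS (22.4% called), beside a background of 25.1% of all genes called and 11.9% called lower. The median log2 fold change was -0.053, against -0.0027 over all genes tested. In males 0 passed with edgeR or DESeq2, and 0 had an unadjusted p under 0.05. Between MSUS females and MSUS males 0 passed with edgeR and 1 with DESeq2, and in the interaction 0 passed with either, with 5 and 3 at an unadjusted p under 0.05. Of 7 genes of transmitter uptake and recycling, 0 passed in females with edgeR or DESeq2, and 3 were under 0.05 without adjustment. These were the glycine transporter gene Slc6a9 (-0.14 ± 0.058), the glutamine transporter gene Slc38a3 (-0.12 ± 0.051) and the GABA transporter gene Slc6a11 (0.22 ± 0.096), with adjusted p of 0.106, 0.115 and 0.128 by edgeR.

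Of 8 genes of gap junctions, ion and water balance, 3 were lower in MSUS females: the cell adhesion gene Hepacam (-0.14 ± 0.040), the sodium pump subunit gene Atp1b2 (-0.14 ± 0.056) and Mlc1 (-0.11 ± 0.043), whose protein partners that of Hepacam at astrocyte junctions. Of 12 genes of metabolism and lipids, 4 were lower. Both counts stand beside 11.9% of all genes tested that were called lower. Mt3, a brain metallothionein gene, was measured at 110 to 125 CPM in Con and 91.5 to 111 CPM in MSUS females, with a log2 fold change of -0.23 ± 0.053 (adjusted p = 0.0154 by edgeR). It was also the single gene of these lists that passed between Con females and Con males, at 0.18 ± 0.048 (adjusted p = 0.0958 by edgeR). That is 2.04% of the 49 genes, beside 2.64% of all genes tested there. Pla2g7 (-0.25 ± 0.065), which encodes a lipoprotein-associated phospholipase, the brain glycogen phosphorylase gene Pygb (-0.11 ± 0.036) and Acsbg1 (-0.12 ± 0.045), an acyl-CoA synthetase gene named after its value was seen, were the others.

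Of 7 transcription factor genes, Zbtb20 was higher in MSUS females, at 0.21 ± 0.076 (adjusted p = 0.0786 by edgeR), and none was lower. Id4 (0.30 ± 0.17) and Nfia (-0.31 ± 0.19) followed in p and did not pass. Of 15 receptor and secreted protein genes, 2 were lower and 1 higher, beside 25.1% of all genes called in females. Clu, the clusterin gene, was measured at 409 to 491 CPM in Con and 359 to 394 CPM in MSUS females, ranges that did not overlap, with a log2 fold change of -0.22 ± 0.048 (adjusted p = 0.0110). Agt, the angiotensinogen gene, was higher, at 1.85 to 5.63 CPM in Con and 3.27 to 14.3 CPM in MSUS females (1.28 ± 0.37, adjusted p = 0.0397 by edgeR). Thbs4, a thrombospondin gene, was lower (-2.66 ± 0.96), with a median of 2.95 CPM and a highest value of 27.1 CPM in Con females against a highest value of 1.99 CPM in MSUS females.

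Reactive astrocyte genes, which rise in injury and inflammation, were tested for 17 of the 21 listed. In females 2 were lower and 1 higher in MSUS (17.6% called, beside 25.1% of all genes), with a median log2 fold change of -0.069. The major histocompatibility gene H2-D1 (-0.19 ± 0.049) and Aspg (-0.85 ± 0.31) were lower, and Cd44, which encodes a hyaluronan receptor, was higher (0.63 ± 0.18), with 1.32 to 2.57 CPM in Con and 2.15 to 4.20 CPM in MSUS females. Lcn2, Timp1, Cxcl10 and Ptx3 had at most 28 counts in any library and were not tested in females. In males 0 of the 17 passed with edgeR or DESeq2, and 0 had an unadjusted p under 0.05.

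Variation among mice of the same group differed between the 10 genes. The pooled standard deviation of log2 CPM within groups was 0.066 for Slc1a3, 0.092 to 0.106 for Glul, Aldh1l1, Gja1, Slc1a2, Aldoc and Sox9, 0.16 for Aqp4, 0.17 for S100b and 0.31 for Gfap. Among the 6441 genes at least as abundant as Gfap in CPM, the median was 0.096, and 4.32% had a value as large as that of Gfap or larger.

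The 10 genes did not vary together as a block. Of their 45 pairs, 32 had a Pearson's r above 0 between deviations from the group mean over the 24 mice and 8 reached 0.6, with a median of 0.20. The highest were Aldh1l1 with Aldoc (r = 0.71, Spearman's rho = 0.71) and Slc1a3 with Gja1 (r = 0.71, rho = 0.66), followed by Slc1a2 with Aqp4 (r = 0.67, rho = 0.66). Slc1a2 and Slc1a3 had an r of -0.22. Paired values of 1 library share its depth, scaling and punch, and these correlations are descriptions with no test. The values differed between the library sets (numbers 1 to 12 against 13 to 24), a difference that was not tested. In the 2 sets r was 0.89 and 0.27 for Slc1a2 with Aqp4, 0.43 and 0.87 for Slc1a3 with Gja1, and 0.80 and 0.60 for Aldh1l1 with Aldoc. With the 2 most distant mice left out, the 3 pairs had an r of 0.58, 0.67 and 0.62.

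**Figure D5:**
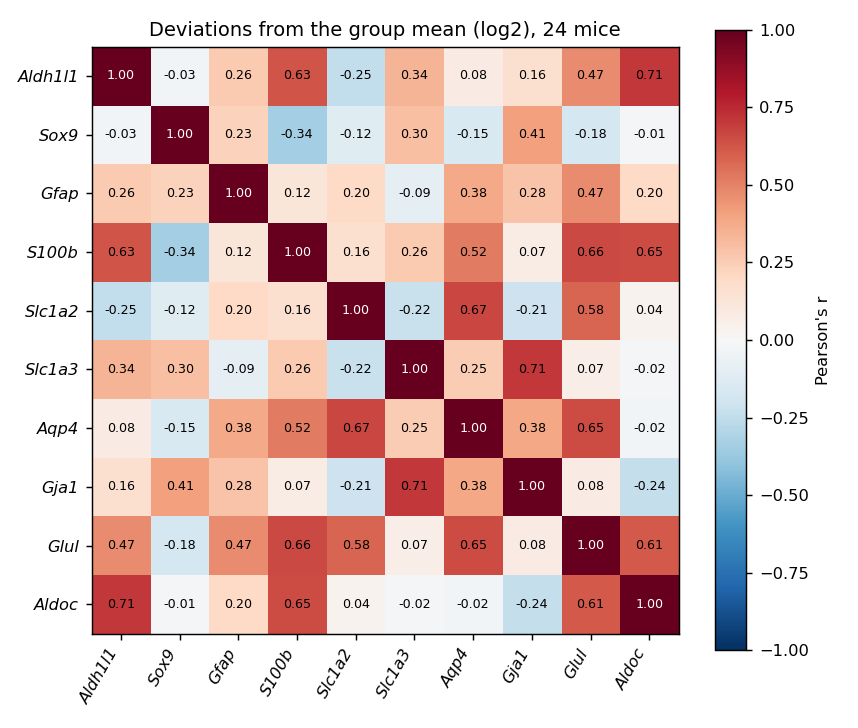
Pearson's r between each pair of astrocyte marker genes, from deviations of log2 CPM from the group mean over 24 mice (color scale from -1 to 1, both axes list the genes). Aldh1l1 with Aldoc and Slc1a3 with Gja1 reach 0.71, and S100b with Sox9 is lowest at -0.34.

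The other genes whose deviations were most like the mean of the 10 genes over the 24 mice were Akap12 (r = 0.87, rho = 0.89), Acsl3 (r = 0.82, rho = 0.82), P2rx5 (r = 0.81, rho = 0.80), Apln (r = 0.81, rho = 0.70) and Smad9 (r = 0.81, rho = 0.79), out of 21477 genes compared. P2rx5 was measured at 0.563 CPM or less in every mouse. With the 2 most distant mice left out, r was between 0.73 and 0.87 for the 5 genes, and it was between 0.74 and 0.93 within either library set. Since the 5 genes were picked by their r in these same mice, these values are no independent check. The deviations were averaged without scaling, so the genes of larger spread, above all Gfap, weighed more in the mean. Glul was the most like the mean among the 10 genes themselves (r = 0.82) and Sox9 the least (r = 0.16), although each contributes to that mean.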

How the data were processed

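RNA-seq libraries of 24 mice were depleted of ribosomal RNA by the authors and were not selected for poly(A) tails. According to the study's methods and the submitters' processing notes, reads were trimmed, aligned to mm10 with STAR 2.6.1b and counted per gene with GENCODE M15. The authors deposited counts without normalization, one per gene and strand and one for both strands, made from pairs with a unique position. Pairs that overlap exons of more than 1 gene are left out by STAR, which touches stretches of 105 bases of Aldh1l1 and 93 bases of Glul shared with a gene on the same strand.

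The sense-strand counts were used. Genes were named and measured for exon length with GENCODE M21 on GRCm38, which holds 52489 of the 52636 identifiers. Groups and replicate numbers came from the sample titles. None of the 60 library pairs of a group matched within sampling noise (lowest chi-square per gene 4.62). Genes kept by filterByExpr (minimum count 10) were normalized by TMM and tested with the robust quasi-likelihood test (edgeR 4.0.16, limma 3.58.1, R 4.3.3), with Benjamini-Hochberg adjustment over all genes tested and a threshold of 0.10 as in the study. Each comparison was fitted on its own 2 groups, and the interaction on all 24 mice. SEs are the log2 fold change divided by the square root of F, and 95% intervals are 1.96 SEs wide on each side. CPM values use TMM factors of all 24 libraries, and log2 CPM has a prior count of 2. The procedure was tested on simulated data. Python 3.11.15 with pandas 2.3.3 and matplotlib 3.10.9 made the summaries and figures. Each of the 10 genes had at least 907 counts in every library, so counting error was small.

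Alternatives were DESeq2 1.42.0, its size factors, no filter, 10 counts in every animal, unstranded counts, the replicate number as a block, offsets for GC content and length alone and with that block, library set, share of pairs in no exon, spliced share from the study's supplement and cortical marker score as covariates, a threshold of 0.05, each animal left out, and all 24 animals in 1 fit. The stage of the estrous cycle, which the study had in its female model, was not used, because the labels name a stage for some males and for only some females. The genes and lists were chosen with earlier results of these data known. Of each list, the 3 genes with the smallest female p were named, and any gene called in another comparison. The most alike genes were the 5 with the highest Pearson's r. After the data were seen, 1 gene was dropped from the striatal marker list and is not reported here. The promoter windows and motifs were chosen after the data were seen.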

Additional observations from a re-analysis of the deposited data

How the results depend on the processing

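In females, the count of astrocyte marker genes called was 4 with the main settings. It was 1 at an adjusted p under 0.05 (Glul), 2 with GC and length offsets (Glul and Slc1a2), 2 with all 24 animals in 1 fit, and 0 with the share of pairs in no exon, the spliced share or the cortical marker score as a covariate. With the replicate number as a block it was 1 (Aldoc), and 0 with the block and GC and length offsets together. The correlation of same-numbered samples ranged from -0.24 to 0.25 between the female groups. Samples of different number were not compared, so whether the numbers pair the samples was not tested. The count of genes called was 3 to 6 with DESeq2, its size factors, either other filter, unstranded counts or library set. Leaving out 1 female gave 0 to 5, and leaving out 1 animal gave 0 to 2 in the interaction. With the spliced share the values of Aldh1l1 (0.016 ± 0.10) and Aldoc (0.049 ± 0.11) were above 0, each by less than its SE. The cause of these changes was not tested. In males and between the sexes the count stayed at 0 under every alternative run.

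Over all genes, 5156 were called in females, against 3126 at 0.05, 3410 with GC and length offsets, 2103 with the block and those offsets, 1817 with the cortical score and 0 with either share. Between Con females and males 544 were called, against 10 with the spliced share and 1474 with DESeq2. Between MSUS females and males 28 were called, against 12 with block and offsets and 159 with DESeq2. Leaving out 1 animal gave 20 to 1395 in the Con and 14 to 64 in the MSUS comparison, and 3102 to 5737 in females. In the interaction 0 were called, against 408 with DESeq2. In males 0 were called under every setting listed. The number of neighbours in level per kilobase whose ranges did not overlap was 4 under both alternatives, although the order changed with the longest transcript. At this depth counting error limits none of the 10 genes, and the 6 animals per group limit the precision.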

Other observations

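The deviations of the 10 astrocyte marker genes from their group means were unevenly distributed over the mice. MSUS female 3 lay below its group mean for 10 of the 10 genes and was the lowest of its group for 7. MSUS female 1 was the highest of its group for 6 genes. In Con males, animal 6 lay above the group mean for 9 genes and was the highest for 6. MSUS male 3 lay above its group mean for 9 genes, and MSUS male 1 lay below it for 8 genes. The mean deviation per mouse ranged from -0.12 in MSUS male 1 to 0.13 in Con male 6 on the log2 scale. The 10 values of a mouse come from 1 library and 1 punch, and are not independent of each other.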
